A study of Mus musculus with 14 samples.

Results

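The collagen and laminin genes are the 47 genes, of 19215 listed in both RNA-seq gene tables, whose symbol has the form of a collagen alpha chain (Col, a number, a, a number) or of a laminin alpha, beta or gamma chain (Lama, Lamb or Lamc and a single digit). They comprise 38 collagen and 9 laminin genes. Their 27 cassette exons, of 13189 in the exon tables, were found by the same gene identifiers. The symbols chose the members and no measured value was used. The laminin beta 1 gene is listed as Lamb1-1 and so was not a member.

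The series held 14 mouse spinal cord samples. RNA-seq of poly(A) RNA was made from the whole spinal cord (WSC) of 1 male and 1 female mouse, 12-week-old, on a B6/SJL background, both carrying the Tg(SOD1)2Gur/J transgene for wild-type SOD1. NOVA HITS-CLIP, which sequences RNA fragments crosslinked to the NOVA splicing factors, was made from 3-month-old C57BL/6 mice. The 4 WSC CLIP libraries came from wild-type cords with a serum against NOVA, and cover all cells with NOVA. The 8 motoneuron (MN) libraries came from pooled cords of hemizygous Chat:GFP-Nova mice, 4 from line #6 and 4 from line #17, with antibodies against GFP. The promoter of Chat, a gene of cholinergic neurons, drives GFP-tagged NOVA2 in these mice, each line descends from a single founder, and the rest of the cord keeps its own untagged NOVA. Antibody, transgene, pooling and depth therefore differed together between MN and WSC and cannot be told apart.

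Collagens are triple helices of 3 chains built from repeats of glycine followed by a pair of other residues, often proline or hydroxyproline. Fibrillar collagens form the fibres of connective tissue, the fibril-associated collagens (FACIT) sit on those fibres, type IV collagen forms the network of basement membranes, and transmembrane collagens are anchored in the cell surface. Laminins join an alpha, a beta and a gamma chain into a cross that organises basement membranes. In the central nervous system these proteins lie in vessel walls, in the pial surface and its meninges, and some collagens are made by neurons. Many helix exons start with a whole glycine codon (GGN) and hold whole repeats of 9 bases.

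The RNA-seq libraries held 72006019 (male) and 65625173 (female) reads on genes, of which the members took 0.0597% and 0.0532%. Single libraries of each sex were made, so sex, animal and library cannot be told apart, and a test between them covers counting error only. In bulk tissue, fewer cells of a type and less RNA per cell cannot be told apart either. Markers of other cells that could carry these genes were also measured. Summed over each list of markers, meningeal and perivascular fibroblasts reached 19.4 and 25.04 RPKM (the authors' reads per kilobase of exon, scaled to library size), endothelium 19.6 and 14.0, pericytes and smooth muscle 31.3 and 29.2, Schwann cells of the nerve roots 8.24 and 9.06, bone and cartilage 6.18 and 5.62, and skeletal muscle 0.925 and 1.16 in the male and female libraries. The skeletal muscle gene Myh4 was listed at 0. The oligodendrocyte list summed to 6981 and 7505 RPKM, and neuron markers to 3370 and 3730. The part of these cell types in the collagen levels was not tested.

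Most collagen and laminin genes were expressed at low levels in the spinal cord. A mean of at least 1 RPKM was reached by 17 of 47 (36.2%), beside 62.1% of all 19215 genes, and the median member stood at 0.678 RPKM, beside 3.46 over all genes. All 47 members had reads in both libraries. The 17 were spread over 7 of 8 classes: 5 of 7 FACIT and related collagens, 4 of 11 fibrillar collagens, 3 of 12 basement membrane and network collagens, 2 of 4 transmembrane collagens, 1 of 4 laminin alpha, 1 of 2 laminin beta and 1 of 3 laminin gamma chains. None of the 4 beaded filament collagens reached it, though Col6a1 came close. The members just below the threshold were Col15a1 (mean 0.996), Col6a1 (0.988) and Col1a1 (0.973), and those just above were Col4a5 (1.18), Col5a2 (1.31) and Col19a1 (1.37).

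**Figure D1:**
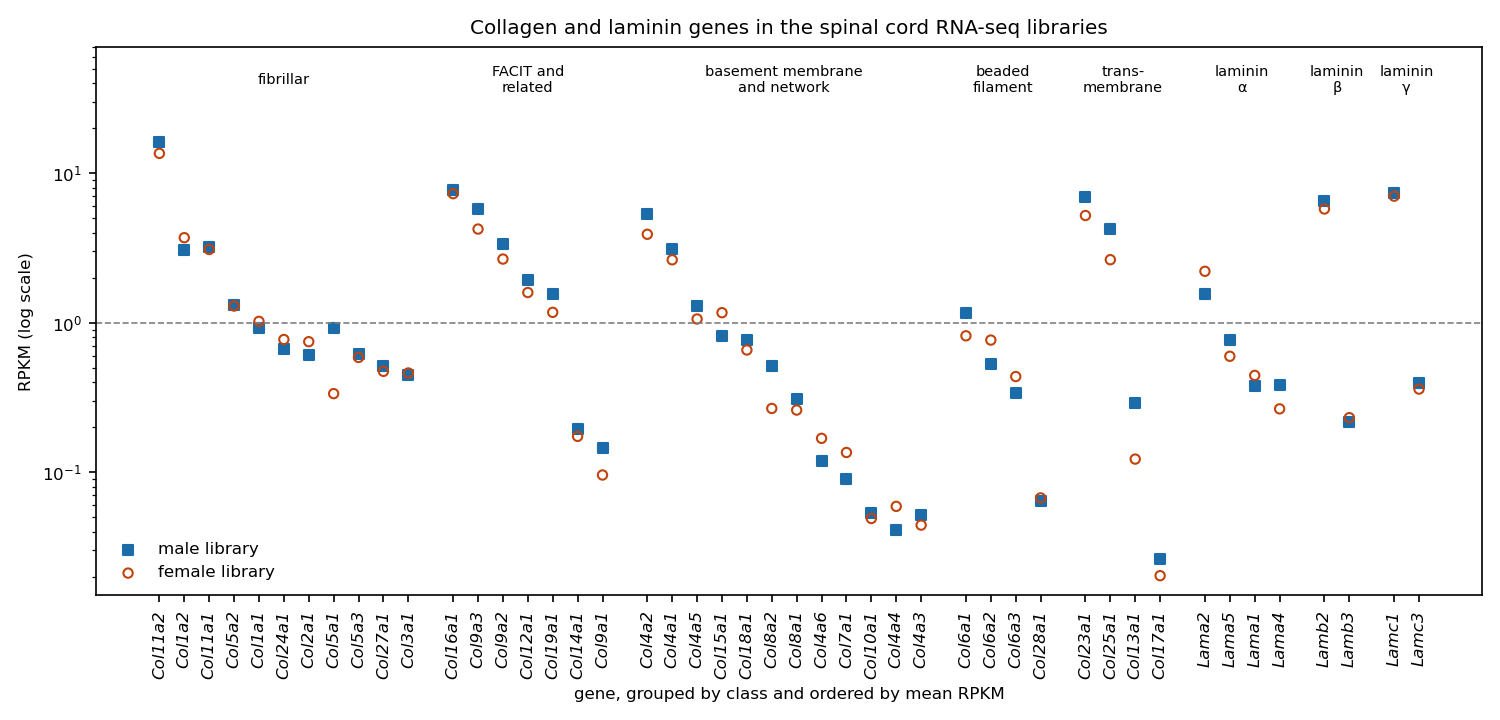
RPKM (log scale) of the collagen and laminin genes, 1 of the 47 left out, in the male library (squares) and the female library (open circles), grouped by class, with the dashed line at 1 RPKM. Col11a2 is the highest at 16.1 and 13.6 RPKM and Col17a1 the lowest, and Col5a1 is at 0.918 and 0.336.

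Among the fibrillar collagens, a minor chain of type XI was ahead of both chains of type I. Col11a2, which encodes the alpha 2 chain of the cartilage and inner ear collagen XI, was at 16.1 and 13.6 RPKM (mean 14.8 ± 1.77, SD, n = 2), above 75.7% of all genes. Its partner Col11a1 was at 3.22 and 3.09, so the ratio of the chains was 5.01 and 4.39. Col2a1, the main collagen of cartilage and the usual source of the third chain of collagen XI, was at 0.609 and 0.748. Col1a2 was at 3.08 and 3.71 RPKM, and Col1a1, with which it forms type I collagen of skin and bone, at 0.923 and 1.02. The alpha 2 chain of type I was thus 3.33 and 3.63 times the alpha 1 chain per length of exon, although the protein holds more alpha 1 than alpha 2. Col5a2 reached 1.32 and 1.30, and the other 6 fibrillar members, Col24a1, Col5a1, Col5a3, Col27a1, Col2a1 and Col3a1, had means between 0.454 (Col3a1, the partner of type I in vessel walls) and 0.723 (Col24a1).

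The FACIT and related collagens were the class with the largest share above 1 RPKM. Col16a1, found in many connective tissues, was at 7.74 and 7.31 RPKM (mean 7.52 ± 0.306, SD, n = 2). The chains of type IX, which coats cartilage fibrils, were uneven: Col9a3 stood at 5.78 and 4.24 and Col9a2 at 3.35 and 2.67, but Col9a1 at 0.144 and 0.0959. Of the exon bases of Col9a3, 6.07% are shared with Tcfl5 on the other strand, and no source used here says that reads were counted by strand. Col12a1, which links fibrils of tendon and ligament, was at 1.94 and 1.59, Col19a1, made by some neurons, at 1.57 and 1.17, and Col14a1 at 0.194 and 0.174. All 7 genes of this class were higher in the male library, beside 52% of the 14539 genes with at least 20 reads. The counting interval of the ratio, male over female, spanned 1 for Col14a1 (0.822 to 1.52) and Col9a1 (0.874 to 2.65). For the other genes of the class it lay above 1.

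Basement membrane collagen was carried by the vascular pair of type IV. Col4a2 was at 5.36 and 3.91 RPKM and Col4a1 at 3.12 and 2.64, so the chains stood at 1.72 and 1.48 to 1. In the mm9 annotation these neighbours start within a few bases of each other on opposite strands of chromosome 8, Col4a1 at 11312826 on the minus strand and Col4a2 at 11312805 on the plus strand. Col4a5, the X-linked chain whose loss causes Alport syndrome, was at 1.30 and 1.06, while its kidney partners were far lower: Col4a3 at 0.0516 and 0.0443, Col4a4 at 0.0411 and 0.0592, and the smooth muscle chain Col4a6 at 0.119 and 0.169. The multiplexins Col15a1 (0.822 and 1.17) and Col18a1 (0.765 and 0.658), sources of endostatin-like fragments, the short-chain network collagens Col8a1, Col8a2 and Col10a1, and the anchoring-fibril collagen Col7a1 were each below a mean of 1.

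Among the transmembrane collagens, Col23a1 and Col25a1 passed a mean of 1 RPKM. Col23a1 was at 6.90 and 5.22 RPKM and Col25a1 at 4.26 and 2.64. Col25a1 encodes the neuronal collagen that is shed as a component of amyloid plaques and that motoneurons need to innervate muscle during development. The neuromuscular junction collagen Col13a1 was at 0.292 and 0.123, and Col17a1, the hemidesmosome collagen of skin, was lowest of all members at 0.0265 and 0.0203. The beaded filament genes Col6a1, Col6a2 and Col6a3 had means of 0.988, 0.647 and 0.389, and Col28a1 0.0659.

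In the laminins 1 member of each kind of chain was ahead of the other members, although Lamb2 could be set against Lamb3 alone, since Lamb1-1 was not a member. Lamc1, the gamma 1 chain of most laminin trimers, was at 7.39 and 7.04 RPKM (mean 7.21 ± 0.254, SD, n = 2), Lamb2 (beta 2) at 6.53 and 5.77 and Lama2 (alpha 2, the chain lost in a congenital muscular dystrophy) at 1.55 and 2.21. Lamc1 stood at 1.13 and 1.22 times Lamb2, whereas it was 4.76 and 3.18 times Lama2. The other alpha chains Lama5, Lama1 and Lama4 had means of 0.683, 0.410 and 0.325 RPKM. Lamb3 (0.225) and Lamc3 (0.378) were low as well. Of the exon bases of Lamc3, 6.27% are shared with a gene on the other strand.

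Genes that make, bind and sense collagen are given beside the 62.1% of all genes with a mean of at least 1 RPKM. Of the collagen processing list (chaperones, hydroxylases, proteases and crosslinking enzymes), 23 of 28 genes found had a mean of at least 1, led by Sparc, a collagen-binding matrix glycoprotein, at 668 and 676 RPKM, by the prolyl isomerase Ppib at 86.5 and 85.4, and by P4hb, a subunit of prolyl 4-hydroxylase, at 73.7 and 75.2. The crosslinking enzyme Lox was among the lowest at 0.107 and 0.0586. Of the basement membrane partners, 8 of 12 passed, led by agrin (Agrn) at 12.1 and 10.2, nidogen (Nid1) at 5.78 and 6.86 and Smoc1 at 7.07 and 5.57. Of the receptors, 9 of 15 passed, led by the collagen receptor kinase Ddr1 at 38.6 and 39.0, integrin beta 1 (Itgb1) at 37.4 and 38.0 and dystroglycan (Dag1) at 18.0 and 14.1.

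The male and the female library differed by less than 1.5-fold at most members. Of the 47 members 31 were higher in the male library, and the other 16 in the female one, beside 52% male-higher among the 14539 genes with at least 20 reads. The 95% counting interval of the ratio, which covers counting error only, lay above 1 for 19 members, beside 33.8% of all genes, and below 1 for 9, beside 30%. These intervals narrow with the number of reads, which differs between genes. On log2(RPKM + 0.1), which understates changes of low genes, 4 of the 46 members with at least 20 reads passed 1.5-fold, all higher in the male library, beside 8.27% of all genes (4.88% higher in the male and 3.38% higher in the female library). With log2(RPKM + 1) none did.

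Those 4 members were Col5a1, Col8a2, Col13a1 and Col25a1. Col5a1, which starts the assembly of type I fibrils, had 564 and 188 reads (0.918 and 0.336 RPKM), a ratio of 2.73 (2.31 to 3.24). Its partner Col5a2 had 683 and 609 reads, a ratio of 1.02 (0.915 to 1.14), so Col5a2 was 1.44 times Col5a1 in the male and 3.86 times in the female library. Col8a2 had 160 and 76 reads (ratio 1.92, 1.45 to 2.56), Col13a1 81 and 31 (2.38, 1.56 to 3.73) and Col25a1 1867 and 1057 (1.61, 1.49 to 1.74). Of these, Col25a1 had the most reads. By the plain ratio of RPKM, which 11.5% of all genes passed, 6 members passed, 5 higher in the male library, among them Col9a1 (38 and 23 reads, ratio 1.51, 0.874 to 2.65), and 1 higher in the female library.

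**Figure D2:**
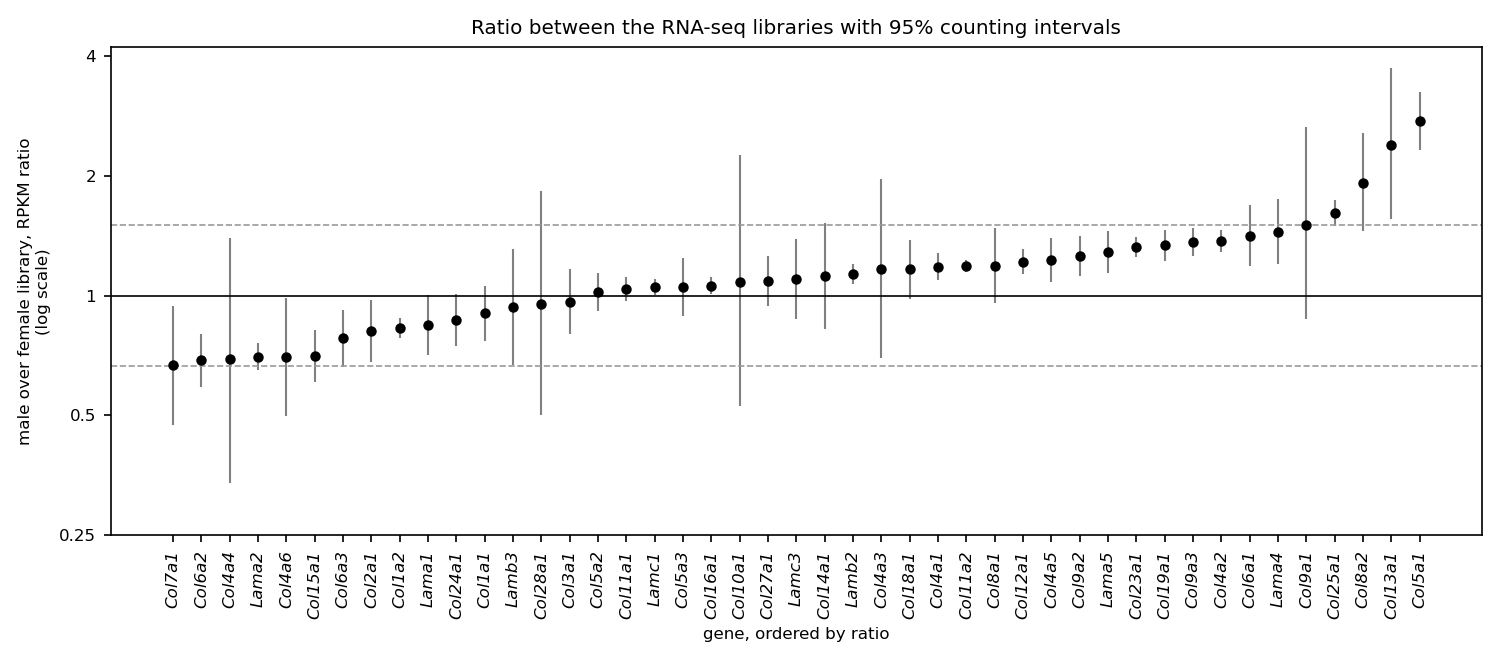
Ratio of RPKM, male over female library (log scale), for the members with at least 20 reads, 1 left out, ordered by ratio. Bars are 95% counting intervals, the solid line marks equal levels and the dashed lines 1.5-fold in each direction. Col5a1, Col13a1, Col8a2 and Col25a1 stand above the upper line at 2.73, 2.38, 1.92 and 1.61, and Col9a1 touches it at 1.51 with an interval that spans 1.

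Partner chains did not always shift together between the libraries. In type IV, Col4a2 and Col4a1 had ratios of 1.37 (1.29 to 1.46) and 1.18 (1.09 to 1.28), intervals that do not overlap, and in type VI Col6a1 had 1.41 (1.19 to 1.69) while Col6a2 had 0.688 (0.590 to 0.801). Lama2 was lower in the male library (0.702, 0.650 to 0.759) and Lamc1 about level (1.05, 1.00 to 1.10). Endothelial markers were higher in the male library and fibroblast markers in the female library, by the sums given earlier, and their part in these ratios was not tested. Among basement membrane partners, chosen here after their values were seen, Tinagl1, Fbln2 and Ntn4 were also 2.76, 1.82 and 1.57 times higher in the male library.

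Cassette exons, which a transcript either includes or skips, were listed for 14 of the 47 members, all of them collagens. None of the laminins had one. The 27 exons were between 16 and 207 nt long. Of these, 22 (81.5%) had a length divisible by 3, beside 45.5% of 13162 exons of other genes. Whether the exons of such a length hold a stop codon in frame was not tested over the set. A length divisible by 9 was found in 13 of 27 (48.1%, exact 95% interval 28.7 to 68.1%), beside 15.5% of the exons of other genes. Exons of 1 gene are not independent, so no test was made.

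The sequences show the collagen repeat directly. Read 5′ to 3′ on the coding strand of mm9, 11 of the 13 exons divisible by 9 had GGN, the glycine codon, at every 9-base step from their first base. Among exons of other genes with such a length and at least 27 nt, each position counted once, 3 of 1540 (0.195%) had it at every step from any of the first 9 bases. The 11 exons are shown because together they carry this pattern, with the GGN codons of each step in capitals.
Col25a1 27-nt, chr3:130222695-130222721: GGAgaacctGGAaaagaaGGAgaaaag
Col25a1 45-nt, chr3:130238349-130238393: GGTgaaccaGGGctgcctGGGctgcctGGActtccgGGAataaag
Col25a1 36-nt, chr3:130278293-130278328: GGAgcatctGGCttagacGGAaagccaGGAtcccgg
Col25a1 27-nt, chr3:130287618-130287644: GGCaaagatGGAgaacctGGTcttgat
Col16a1 45-nt, chr4:129758679-129758723: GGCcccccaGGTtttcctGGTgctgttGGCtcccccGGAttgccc
Col13a1 36-nt, chr10:61316105-61316140: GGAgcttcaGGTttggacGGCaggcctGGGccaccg
Col13a1 99-nt, chr10:61324763-61324861: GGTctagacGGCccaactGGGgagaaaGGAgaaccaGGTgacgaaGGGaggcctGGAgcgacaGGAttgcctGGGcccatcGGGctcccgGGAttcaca
Col13a1 27-nt, chr10:61368002-61368028: GGTatcaaaGGTcaaccaGGCgagaag
Col3a1 108-nt, chr1:45394271-45394378: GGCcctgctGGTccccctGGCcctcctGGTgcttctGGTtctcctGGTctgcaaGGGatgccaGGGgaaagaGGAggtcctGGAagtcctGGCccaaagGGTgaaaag
Col5a1 54-nt, chr2:27829964-27830017: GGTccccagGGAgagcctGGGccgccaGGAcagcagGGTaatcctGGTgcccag
Col6a1 45-nt, chr10:76181118-76181162: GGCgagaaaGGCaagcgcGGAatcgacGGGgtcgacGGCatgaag
The exons of Col13a1 and Col6a1 lie on the minus strand of the chromosome and the others on the plus strand.

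The remaining exons of such a length were in Col11a2 and Col2a1 and did not carry the repeat. The Col11a2 180-nt exon had GGN at 5 of 20 steps of its best frame. It is shown because it had the lowest mean inclusion, by junction reads, of the exons with enough reads. The Col16a1 87-nt exon is shown because the repeat ends inside it. Both lie on the plus strand.
Col11a2 180-nt, chr17:34184043-34184222: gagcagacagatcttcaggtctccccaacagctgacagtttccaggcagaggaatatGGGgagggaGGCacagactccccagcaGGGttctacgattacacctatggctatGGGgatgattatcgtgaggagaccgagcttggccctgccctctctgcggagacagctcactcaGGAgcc
Col16a1 87-nt, chr4:129758679-129758765: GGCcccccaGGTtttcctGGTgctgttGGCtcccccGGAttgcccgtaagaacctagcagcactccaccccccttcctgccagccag
The 87-nt exon begins at the same base as the 45-nt exon and runs past its end, where the repeat stops after 5 of 10 steps.

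Coverage of these exons was thin. Of the 27 exons, 3 had no junction read in either library, and 8, in Col11a2, Col16a1 and Col25a1, had at least 10 junction reads in each. Over those 8 the mean inclusion rate (the share of transcripts that include the exon, from junction reads) was 84.4% in the male and 90.6% in the female library (87.5% ± 4.41, SD, n = 2), beside 69.0% over all 9396 covered exons. None of the 8 differed between the libraries by Fisher's exact test on the inclusion and skipping reads (two-sided, FDR at most 0.1, adjusted over all covered exons), which compares these libraries and not the sexes, and none had an unadjusted p under 0.05. The share of all covered exons called was 4.26%, and 1157 had an unadjusted p under 0.05. At this depth a difference of many percentage points would not be detectable.

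A mean inclusion below 90% was seen for 3 of the 8 exons, beside 45.6% of all covered exons. The Col11a2 180-nt exon was included at 57.9% (95% Wilson interval 29.0 to 82.2%) and 60.0% (27.9 to 85.3%), from 15 and 12 junction reads. Its inclusion junctions were uneven in the male library, with 10 and 1 reads. By the inclusion reads used in Fisher's test, which also hold exon body reads, it was at 87.1% and 85.0%. The neighbouring Col11a2 78-nt exon, by contrast, was at 100% in both libraries, from 70 and 36 junction reads (at least 90.1% and 82.4% by the intervals). The Col16a1 45-nt exon was at 81.0% (60.0 to 92.3%) and 85.0% (64.0 to 94.8%), and its extended 87-nt form, which shares the upstream junction reads and all skipping reads with it, at 57.9% and 80.0%. Its own downstream junction had 0 and 2 reads. The Col16a1 48-nt exon was at 88.9% (71.9 to 96.1%) and 100% (from 80.6%).

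**Figure D3:**
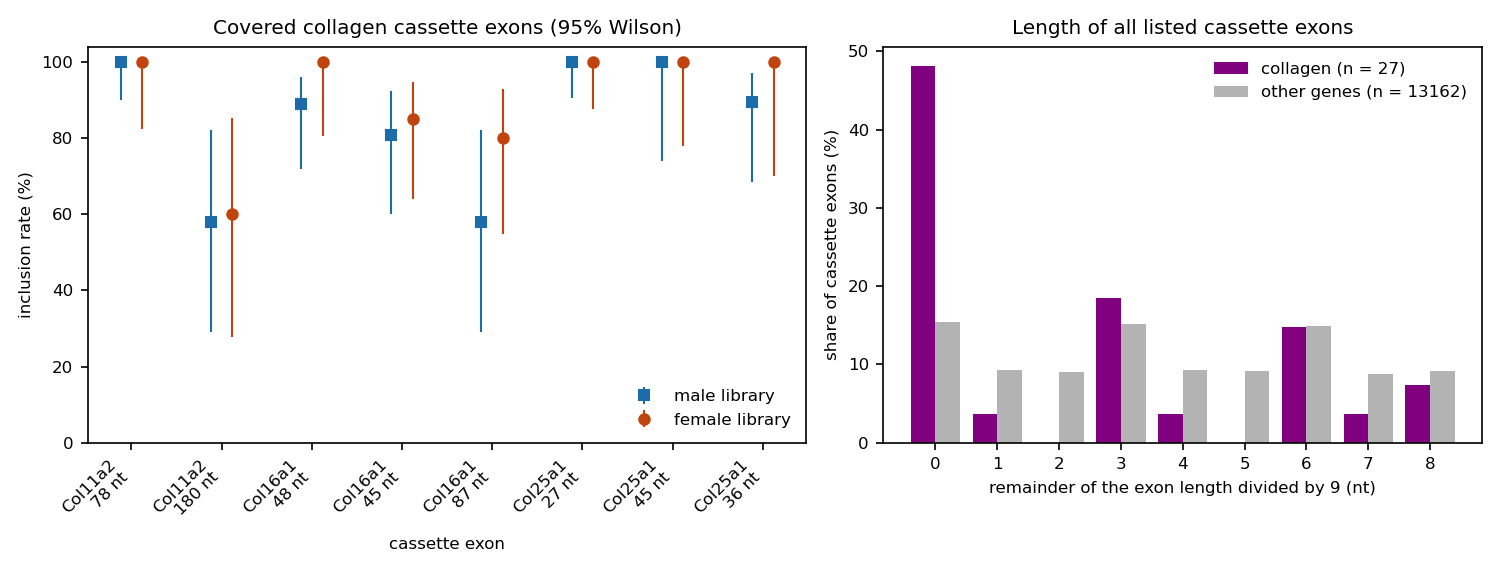
Left, inclusion rate (%) of the 8 covered collagen cassette exons in the male library (squares) and the female library (circles) with 95% Wilson intervals. Right, share (%) of cassette exons by the remainder of their length divided by 9, for 27 collagen exons and 13162 exons of other genes. The intervals of both libraries overlap at every exon, and 48.1% of the collagen exons have remainder 0, beside 15.5% of the others.

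Col25a1 had 4 exons of whole repeats, and they were not used alike. The 27-nt exon at 130222695 and the 45-nt exon were included at 100% in both libraries, from 74 and 55 and from 22 and 27 junction reads. The 36-nt exon was at 89.5% (68.6 to 97.1%) and 100% (from 70.1%). The second 27-nt exon, at 130287618, had 23 junction reads in the male library, 11 of them skipping it, which gave 35.3% (17.3 to 58.7%), but in the female library all 7 junction reads skipped it (0%, up to 35.4%), below the minimum for a test. Among exons with too few reads, the Col4a1 17-nt exon, which matches no annotated exon, was included at 0% and 16.7% from 8 and 14 reads.

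NOVA CLIP tags were next compared between MN and WSC to see which collagen and laminin RNAs NOVA binds in each. NOVA proteins are neuron-specific and bind the letters YCAY (Y is C or T) in introns, where they steer splicing, and in 3′ UTRs. The 8 MN libraries held between 65961 and 871804 tags and the 4 WSC libraries between 2213104 and 6095995, so a single tag weighs far more in MN. The groups carried their labels: the summed motoneuron markers lay between 592 and 1030 CPM (tags scaled to 1000000 tags on genes in a library) in MN and between 105 and 136 in WSC, and interneuron markers between 91.9 and 500 in MN and between 2485 and 2700 in WSC. Astrocyte markers were at 843 to 1701 in MN and 2139 to 2689 in WSC, and endothelial markers at 0 to 162 and 11.1 to 19.6. Within the MN arm, none of 4536 genes differed between the lines by edgeR (FDR at most 0.01), and 129 had an unadjusted p under 0.05.

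The 47 members held 775 tags in MN and 6727 in WSC. Their sum lay between 422 and 920 CPM in MN (median 561) and between 470 and 485 in WSC, so the groups overlap, and without line #17 replicate 1 the highest MN value was 653. A tag was found for 39 members in MN and for 46 in WSC, where Col2a1 was the exception. Tags were concentrated on few genes. Col25a1 alone held 39.7% of the WSC member tags and 13.9% of the MN member tags, and 23 members had under 20 tags over the 4 WSC libraries. Without Col25a1 the members summed to between 362 and 660 CPM in MN and between 272 and 302 in WSC, ranges that do not overlap, though this gene was set aside after its values were seen. Of the 4536 single genes tested below, 30% had MN and WSC ranges that do not overlap. Over all genes the exonic share was lower in MN (33.4% to 46.4%) than in WSC (60.9% to 66.2%). The part of that shift in the sums was not tested.

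A filter on low counts left 5 of the 47 members, of 4536 genes, in the edgeR quasi-likelihood test (FDR at most 0.01, Benjamini-Hochberg over all genes tested). The filter asked for about 40.5 CPM, 10 tags in the median library, in at least 4 libraries, so the members kept do not stand for the other 42. Of the 5, Col4a5 had more tags in MN and Col25a1 fewer, beside 28.2% of all tested genes with more tags in MN and 29.1% with fewer (57.2% in either direction). Shares of calls were this high over all genes, so 1 call in each direction among 5 genes is near the background.

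Col4a5 had more NOVA tags in MN than in WSC, but it passed the filter only through MN, where it is high: 4 MN libraries and 0 WSC libraries reached that level, so its call cannot be read as support. With no filter on low counts it was also called (log2 fold change 1.95 ± 0.25, SE, adjusted p = 4.36e-13, edgeR). It had 40.8, 0, 56.4 and 40.2 CPM in the line #6 replicates 1 to 4, and 60.0, 32.5, 30.3 and 52.9 in those of line #17, against 11.6, 8.85, 11.8 and 12.3 in WSC. The MN libraries stood above the WSC range in 7 of 8 cases, and the exception was line #6 replicate 2, the library with no Col4a5 tag among 67955 tags on genes. The log2 fold change was 2.15 ± 0.27 (SE), 4.44-fold, with an adjusted p of 7.41e-08 in edgeR. It was 2.09 for line #6 alone and 2.24 for line #17 alone. The counts behind it were small, 73 tags in MN and 152 in WSC. Introns held 93.2% of the MN tags and 94.7% of the WSC tags of this gene, and with intronic tags only, an alternative added once results were known, the log2 fold change fell to 1.26 ± 0.27 (adjusted p = 0.000255, edgeR). Its neighbour Col4a6, too low for the test, had 19 tags in MN and 18 in WSC in spite of the difference in depth, or 12.7 ± 9.50 and 1.27 ± 0.142 CPM (SD, n = 8 and 4).

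Col25a1 was the member with the most NOVA tags in the whole cord and had fewer in motoneurons. It had 183, 198, 187 and 179 CPM in WSC. In MN it had 81.6, 29.4, 37.6 and 23.0 in the line #6 replicates 1 to 4 and 260, 187, 106 and 60.3 in those of line #17. All 4 libraries of line #6 lay below the WSC range, whereas line #17 ran from below it to above it. The log2 fold change, MN minus WSC, was -1.33 ± 0.23 (SE, adjusted p = 1.16e-05, edgeR). It was -2.22 with line #6 alone and -0.85 with line #17 alone, and with DESeq2 it no longer passed (-1.01, adjusted p = 0.0415). Between the lines Col25a1 differed by 1.67 ± 0.48 on the log2 scale, line #17 minus line #6 (unadjusted p = 0.00154, adjusted p = 1.00, edgeR).

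The 3 other members tested did not pass. Lamc1 was at 59.0 ± 15.3 CPM in MN and 46.9 ± 4.68 in WSC (SD, n = 8 and 4). Its log2 fold change was 0.34 ± 0.17 (SE, adjusted p = 0.0838, edgeR). Col19a1 was at 38.6 ± 18.2 and 47.6 ± 3.17 (adjusted p = 0.540) and Col11a1 at 32.1 ± 9.86 and 44.9 ± 8.17 (adjusted p = 0.390, all by edgeR). These values do not show that the groups are alike. With intronic tags only, set against all intronic tags, Col19a1 (log2 fold change -0.77) and Col11a1 (-0.98) passed as lower in MN, where 15.1% of 2714 genes did.

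**Figure D4:**
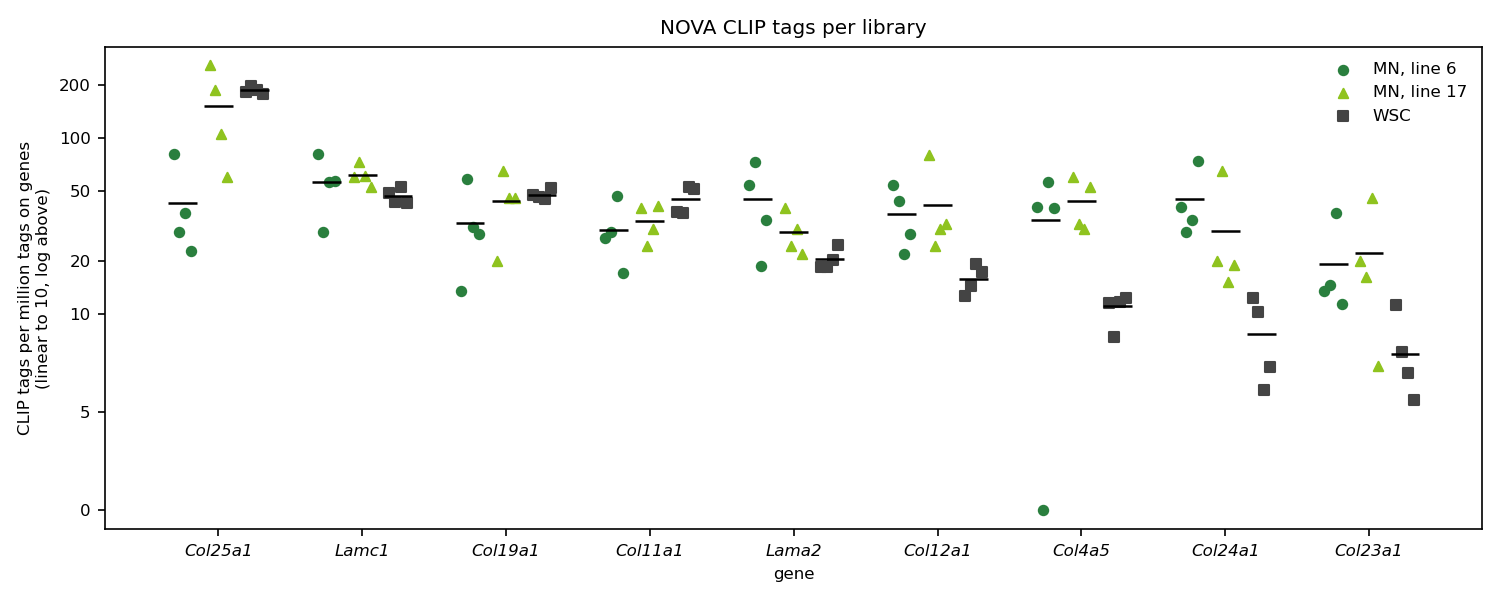
NOVA CLIP level in CPM (linear up to 10, log above) in each library of MN line 6 (circles), MN line 17 (triangles) and WSC (squares), with group means as bars, for the 5 members tested and the 4 next most tagged that have a tag in every library. Col4a5 stands above the WSC range in 7 of 8 MN libraries, and Col25a1 below it in all 4 line 6 libraries.

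Among members outside the test, 2 stood apart without overlap. Of the 8 members with a tag in all 12 libraries, Col24a1 and Col12a1 had MN ranges wholly above WSC, beside 12.8% of 4409 such genes. None had a range wholly below, beside 14.5%. That requirement sets a floor in shallow MN libraries: 1 tag was 20.01 CPM in line #17 replicate 1. The lowest WSC values of Lama2, Col12a1, Col24a1 and Col23a1 were under this, so these genes could not lie wholly below. In that library any tag also put Col24a1 and Col12a1 above WSC. For Col24a1 the same held in line #6 replicates 1 and 2 and line #17 replicate 3 (13.6, 14.7 and 15.2 CPM per tag). Neither count of ranges can therefore be read as support. Col24a1, a fibrillar collagen of developing bone, was at 15.2 to 74.7 CPM in MN (median 31.9) and 6.09 to 12.3 in WSC. Col12a1 was at 21.9 to 80.0 (median 31.3) and 12.7 to 19.2. Their MN values rest on 52 and 50 tags over 8 libraries, and the fewest tags in a library were 1 and 2. Introns held 98.1% of the MN tags and 59.5% of the WSC tags of Col24a1, and 80% and 77.4% of those of Col12a1. Neither gene was in the test with intronic tags only. With no filter on low counts, 6 members passed as higher in MN (Col12a1, Col24a1, Col4a5, Col4a6, Col5a1 and Col9a3), beside 7.18% of 16430 genes, and Col25a1 as lower, beside 15.9%. Counts were near the floor for Col9a3 (5 tags in MN and 5 in WSC) and Col5a1 (17 and 13). Both genes lacked tags in some MN libraries. In the test with the filter, 28.2% of genes passed as higher and 29.1% as lower. Of the collagen processing list, 2 of the 6 genes tested passed as higher in MN (Adamts2 and Leprel1). Sparc passed as lower (log2 fold change -1.27 ± 0.15, adjusted p = 2.26e-08, edgeR). Only 2 of 16 listed receptors were tested, and both passed as higher by edgeR. They were Itgb1 (1.17 ± 0.17, adjusted p = 7.84e-07) and Itga6 (1.44 ± 0.21, adjusted p = 1.11e-06). Whether these partner genes passed the filter through MN alone was not examined, so their calls cannot be read as support.

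NOVA tags on these genes lay mainly in introns. Introns held 82.6% of the member tags in MN and 57.7% in WSC, and 3′ UTRs 9.68% and 33.0%. Over all genes the exonic share was likewise lower in MN, between 33.4% and 46.4% as against 60.9% to 66.2% in WSC. Col25a1 held most of the 3′ UTR tags of the members in WSC, and 31 of 75 in MN. In WSC 60.2% of its tags, 1607 of 2669, lay in the 3′ UTR, and in MN 28.7% of its 108. The last 10 kb of this gene held 129 CPM in WSC and 27.7 in MN, and the rest of the gene held 60.3 and 41.8. The share of tags in the last 10 kb was 67.1 to 71.7% in the 4 WSC libraries and 0 to 75% in the 8 MN libraries, which had between 2 and 41 Col25a1 tags each, so the groups overlap. Pooled, the share was 50% in line #6 and 36.9% in line #17.

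**Figure D5:**
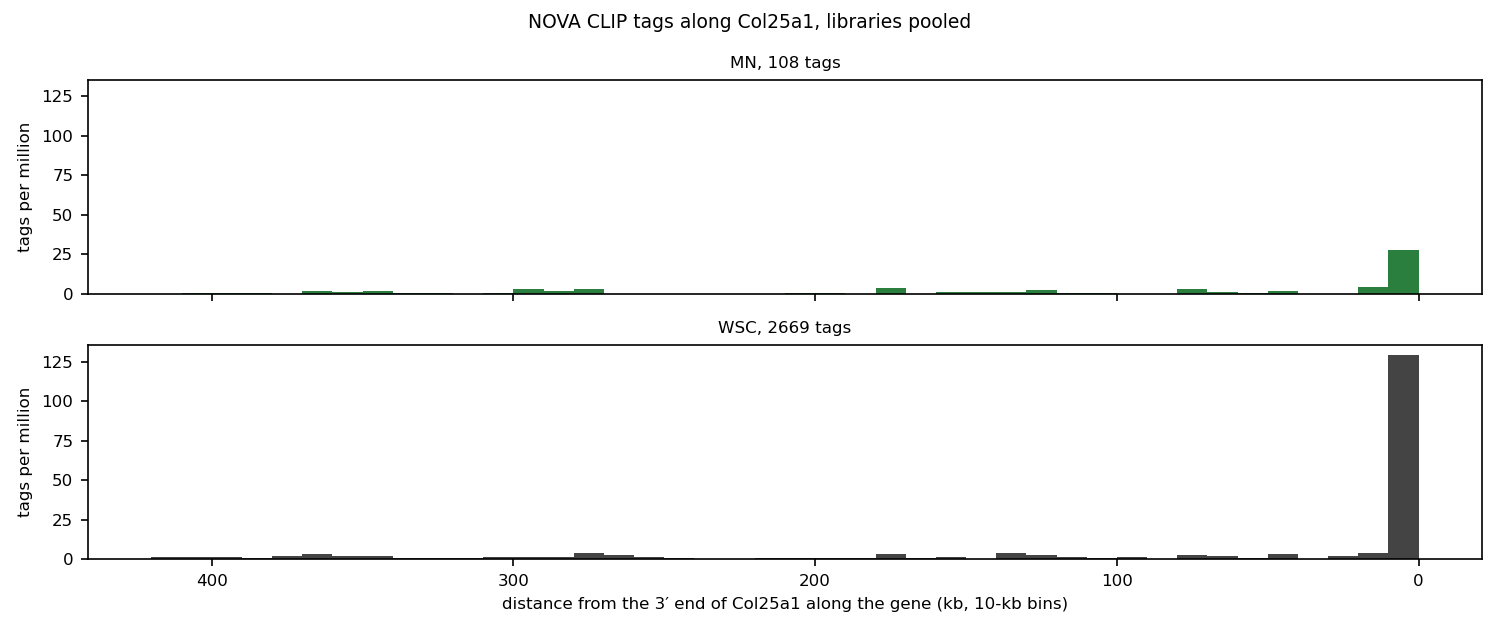
NOVA CLIP level in CPM in 10-kb bins along Col25a1, by distance from its 3′ end (kb), pooled over the 8 MN libraries (top) and the 4 WSC libraries (bottom). The last bin holds 27.7 CPM in MN and 129 in WSC, and the remaining tags are scattered along the introns.

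The 30-nt windows most tagged in WSC are shown for the 6 members with over 20 tags in one window, to give the letters NOVA was crosslinked near, with YCAY on the gene's strand in capitals (positions in mm9).
Col25a1, 3′ UTR, 194 tags, chr3:130300465-130300494, plus strand: attTCATggacttccttggaacagaccaac
Lamc1, intron, 44 tags, chr1:155149203-155149232, minus strand: CCATCCATCCATctatctatctaagatagg
Col11a1, 3′ UTR, 40 tags, chr3:113922146-113922175, plus strand: atttccaaaacttgcacgtgactctcaatc
Col19a1, 3′ UTR, 25 tags, chr1:24271195-24271224, minus strand: gtgagacgatttggtacacagacgacacag
Col4a5, intron, 25 tags, chrX:138049210-138049239, plus strand: taaagttagttatcaaacatcctcaaTCAT
Col4a2, 3′ UTR, 22 tags, chr8:11449157-11449186, plus strand: aaaTCATtgacagtggcgtcctacaacctg
The Lamc1 window is a run of CCAT repeats with 3 YCAY, whereas the windows of Col11a1 and Col19a1 hold none. Each window had tags from all 4 WSC libraries. Of the 18 members with at least 40 WSC tags, 12 (66.7%) had YCAY in their top window, beside 88.9% of 10155 other genes with at least 40. The 2 sets were not matched for depth, and the top windows of the members held between 2 (Lama4) and 194 tags (Col25a1). In 9 of the 18 the top window lay in an intron (50%, beside 21.0% of the other genes). A match is a description of the letters and not of a binding site.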

How the data were processed

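RNA-seq reads (poly(A), trimmed from 100 to 74 nt) were aligned by the authors with OLego to mm9 and deposited as read counts per gene and per cassette exon junction from Quantas. The deposited RPKM values were calculated by the authors from these counts, the exon length and the library total, and recomputing them gave the same values. CLIP reads were aligned by the authors to mm9 with Novoalign (version not given in the sources used here), filtered and collapsed, and deposited as 1 row per tag, with a score column that was not used.

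Here, tags were counted per gene on the gene's strand (GENCODE vM1, mm9); positions shared by genes of the same strand were left out, and values are shown as CPM, tags scaled to 1000000 tags on genes. MN (8) and WSC (4) were compared with edgeR 4.0.16 (quasi-likelihood, TMM, filterByExpr with a minimum count of 10, FDR at most 0.01), and with DESeq2 1.42.0 as an alternative. Exons with at least 10 junction reads in each library were compared by Fisher's exact test (FDR at most 0.1). RNA-seq ratios have exact 95% counting intervals and inclusion rates Wilson intervals, which cover counting error only. CLIP p-values measure the spread between separate tissue preparations. The tests were also run on simulated counts. For CLIP these had the same spread for every gene and no difference between the lines, and for exons counting error only. The simulated runs therefore do not cover differences between lines, animals or preparations. Python 3.11.15, scipy 1.17.1 and R 4.3.3 were used.

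The members, the partner and marker lists and the tests were chosen with earlier results of these data known. Every member was accounted for, and those with a mean of at least 1 RPKM, a covered exon or a CLIP test were described in detail. The values of 1 member and of 1 marker gene are not reported here, though they are part of the counts and sums.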

Additional observations from a re-analysis of the deposited data

Results flagged for a closer look

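In 3 of the 30 groups of 4 CLIP libraries examined, 1 library stood far from the other 3 by Dixon's criterion, which chance meets in about 1 of 20 groups. Col23a1, a transmembrane collagen, was at 37.6 CPM (tags scaled to library size) in line #6 replicate 3 (12 tags), and between 11.5 and 14.7 in the others of that line. Col12a1 was at 80.0 in line #17 replicate 1 (4 tags), and between 24.4 and 32.4 in the others. Col24a1 was at 65.1 in line #17 replicate 2 (8 tags), and between 15.2 and 20.01 in the others.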

How the results depend on the processing

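Of 101 alternatives to the counts and means over all members, 77 left the value within its limits and 24 moved it. The 17 members with a mean of at least 1 RPKM became 27 at 0.5 RPKM and 33 with RPKM rescaled to sum to 1000000. The 4 members past 1.5-fold became 1 at 2-fold and 0 with log2(RPKM + 1). Mean exon inclusion rose from 87.5% to 94.2% with exon body reads and to 95.5% with 20 junction reads in each library (5 exons). The 1 member with more tags in MN became 6 with no filter on low counts, 3 with line 6 alone, 3 with line 17 alone, 3 with MN replicates 3 and 4 only and 0 with exonic tags only, where Col4a5 was not tested. Leaving out 1 library gave between 0 and 3. It was 0 without line #6 replicate 3, line #17 replicate 4 or any WSC library, because Col4a5 then fell below the filter. With the genes of the full fit it was 1 each time. That gene list holds Col4a5 through its MN libraries alone, so these refits cannot be read as support. The 1 member with fewer tags became 0 with DESeq2 and 3 with intronic tags only. The intronic counts, the fits on the genes of the full fit and the plain RPKM ratio were added with results known. Col4a5 kept a log2 fold change between 1.26 and 2.31 in the 27 alternatives that tested it, and Col25a1 between -2.22 and -0.85 in 34.

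Replicate numbers did not pair the CLIP libraries (correlations of deviations between -0.07 and 0.03). With the number as a replicate block, 1 member had more tags in MN and 1 fewer, and over all genes the calls went from 1277 and 1319 to 1037 and 1120. In the CLIP comparison 42 of 47 members were too sparse to test, and 23 members had under 20 tags even over the 4 WSC libraries. RNA-seq had 1 library per sex, so tests between them say nothing of the sexes, and 19 of 27 cassette exons had too few junction reads. RPKM levels rest on the authors' exon lengths: with annotated exon lengths the mean of Col19a1 went from 1.37 to 2.13 RPKM and that of Col25a1 from 3.45 to 2.26.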
